A study of Mus musculus with 54 samples.

Results

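The 8 genes described here encode 6 myosin light chains and 2 of the kinases that phosphorylate them. They are Myl1, Myl2, Myl3, Myl4, Mylpf and Myl6b, and the kinase genes Mylk2 and Mylk4. They were chosen by name and found by their NCBI gene numbers in the 27 deposited tables, which together list 19653 genes. All 8 were found. Myl1, Myl2, Myl4, Mylpf, Myl6b, Mylk2 and Mylk4 were listed in all 27 tables, and Myl3 was listed in 23.

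Each sarcomeric myosin heavy chain carries an essential and a regulatory light chain on its neck, where they stiffen the lever arm. Myl1 encodes the essential chain of fast skeletal muscle, Myl4 the embryonic skeletal and atrial essential chain, Myl3 the slow skeletal and ventricular essential chain, and Myl6b an essential chain of slow muscle and non-muscle cells. Mylpf encodes the regulatory chain of fast skeletal muscle, and Myl2 that of slow skeletal and ventricular muscle. Mylk2 encodes the calmodulin-dependent kinase that phosphorylates the regulatory chain in skeletal muscle, and Mylk4 encodes a less studied member of the same kinase family. In differentiating myoblasts the fast and embryonic light chains are late genes, transcribed with the contractile apparatus after commitment.

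RNA was sequenced from H2K myogenic progenitors, cultured mouse myoblasts, of 6 kinds: cells from wildtype mice, emerin-null cells from EMD-/y mice (EMD-/y), and EMD-/y cells transduced by lentivirus with wildtype emerin (+EMD) or with the disease-causing emerin mutants S54F, Q133H or the deletion 95-99 (del95-99). Emerin is a protein of the inner nuclear membrane. The wildtype and EMD-/y cells were derived separately, so in every comparison with wildtype the derivation of the cells cannot be told apart from the loss of emerin. Every transduced line lacks the endogenous gene and was selected in puromycin, at a dose that differed between lines. The mutant lines were plated at a higher density than the wildtype and EMD-/y cells, and the density of +EMD for RNA was not stated. Transduction, selection and, for the mutant lines, density cannot be told apart from the introduced protein when these lines are compared with wildtype. Cells were grown in serum-rich medium with γ-interferon and switched to 5% horse serum, and RNA was taken at the switch (day 0) and after 24 h (day 1) and 48 h (day 2). The 54 samples form 18 groups of a line and a day, each with 3 labelled replicates, which the submitters describe as technical replicates within biological ones. Whether the transduced lines are single clones was not stated.

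The tables hold 1 normalized count per group (the group value) and no values per sample. No spread between replicates can be given, no test was run, and every comparison below is a description of group values. Levels are given as CPM, the group value scaled so that its column sums to 1000000, as the median over the 2 to 7 tables that hold a group. Column sums were between 16719491 and 21128040. The same group did not always have the same value in each table. Over all genes at 5 CPM or more, the highest table exceeded the lowest by a median of 1.00-fold in every group and by at most 1.16-fold at the 99th percentile. Leaving out the rare Myl2 and Myl3, this fold among the members was at most 1.12 for Mylk2 and 1.28 for Mylk4, but reached 1.98 for Myl1, 1.88 for Myl4 and 1.80 for Mylpf, all in Q133H at day 1. How the group values were estimated is not given in the sources used here, and the range over tables, printed beside a level, is the only spread these data offer. Emd, the targeted gene, was at 105, 95.1 and 54.8 CPM in wildtype at days 0, 1 and 2, and at 0.13 CPM or less in each of the other 15 groups, +EMD included, so its values do not show the introduced emerin. Of the skeletal muscle genes, Des, the muscle intermediate filament, was between 531 and 3108 CPM over the groups. Myod1, the determination factor, was between 345 and 1267 CPM. Not every such marker was high. Ckm, muscle creatine kinase, had group values of 34.9 in Q133H and 50.2 in del95-99 at day 0, which is under 10 CPM. None of the 5 cardiac markers and none of the 4 fibroblast markers reached 10 CPM in any group.

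The regions just upstream of an annotated start are shown for Myl1, Mylpf, Mylk4 and Myl6b, whose levels moved together over the 18 groups. Such regions were chosen because myogenic factors bind E-boxes in them. RefSeq promoter windows on GRCm38.p6 were matched for 7 of the 8 genes, with 8 windows in all. Each was searched on both strands, over the 250 bases before the start, for CAGCTG, an E-box read by MyoD and myogenin, for CACCTG or CAGGTG, and for the MEF2 consensus and the CArG box. Bases that a GENCODE exon covers are not shown, and capitals mark CAGCTG. Myl4 moved with these genes too, but the longest stretch of its window free of exons was 42 bases, so it is not shown.
Myl1, minus strand, chr1:66945144-66945290: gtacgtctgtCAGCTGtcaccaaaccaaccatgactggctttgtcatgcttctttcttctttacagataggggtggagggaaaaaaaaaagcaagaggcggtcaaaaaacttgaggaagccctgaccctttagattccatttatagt
Mylpf, plus strand, chr7:127211358-127211607: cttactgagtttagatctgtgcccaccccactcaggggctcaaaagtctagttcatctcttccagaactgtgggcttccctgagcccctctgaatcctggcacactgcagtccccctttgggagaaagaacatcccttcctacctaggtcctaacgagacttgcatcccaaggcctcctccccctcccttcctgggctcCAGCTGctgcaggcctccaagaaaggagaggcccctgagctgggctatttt
Mylk4, minus strand, chr13:32783965-32784214: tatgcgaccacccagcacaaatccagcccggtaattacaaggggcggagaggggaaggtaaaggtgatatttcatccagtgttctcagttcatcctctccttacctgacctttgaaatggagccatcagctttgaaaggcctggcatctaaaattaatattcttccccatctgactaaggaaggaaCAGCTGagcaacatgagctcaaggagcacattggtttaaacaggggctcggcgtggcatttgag
Myl6b, minus strand, chr10:128498686-128498935: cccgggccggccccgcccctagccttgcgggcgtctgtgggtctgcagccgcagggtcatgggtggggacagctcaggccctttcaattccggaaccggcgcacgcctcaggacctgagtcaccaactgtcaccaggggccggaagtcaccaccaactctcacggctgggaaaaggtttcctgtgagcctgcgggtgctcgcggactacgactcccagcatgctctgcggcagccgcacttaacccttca
CAGCTG began 224 bases before the start used for Myl1, 51 before that of Mylpf and 64 before that of Mylk4. It began 130 bases before 1 of the 2 starts of Myl2. It was in 4 of the 8 windows and in 13.0% of 32851 promoter windows of the same length. The windows of Myl3, Myl4 and Myl6b held none. The MEF2 consensus was in the Mylk4 window alone (2.92% of all windows) and the CArG box in the Myl3 window alone (1.47% of all). CACCTG or CAGGTG was also in the Myl3 window alone (17.2% of all). These matches are letters in 1 window per start and do not show binding. The starts used for Myl1, Myl4, Mylpf and Mylk4 lie inside the gene spans that follow, not at their outer end. So does 1 of the 2 starts of Myl2. The 8 genes lie apart in the genome: Myl1 at chr1:66924295-66947932, Myl2 at chr5:122092724-122113473, Myl3 at chr9:110763678-110769802, Myl4 at chr11:104546017-104587215, Mylpf at chr7:127208848-127214288, Myl6b at chr10:128494157-128498685, Mylk2 at chr2:152911281-152923065 and Mylk4 at chr13:32700824-32806773.

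In wildtype cells the light chains were already present at day 0 and were several times higher on each following day. Mylpf was at 172 CPM at day 0 (lowest and highest of 6 tables, 168 and 186), 995 at day 1 (990 to 1000 over 7 tables) and 3551 at day 2 (3471 to 3552 over 6 tables). Myl1 was at 128 (124 to 145), 771 (760 to 775) and 2671 (2605 to 2674) CPM. Myl4 was at 127 (119 to 144), 867 (851 to 875) and 3137 (3060 to 3138) CPM. The table ranges of the 3 days do not overlap for any of these genes. Myl6b was lower throughout, at 27.4, 187 and 715 CPM. The 6 light chains together made up 0.0454% of the wildtype column at day 0, 0.282% at day 1 and 1.01% at day 2.

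Per kilobase of the listed transcript length, which allows genes to be compared, the order in wildtype at day 2 was Mylpf (4709 CPM per kilobase), Myl4 (3413), Myl1 (2897), Myl6b (671), Mylk4 (60.0), Myl2 (10.8) and Mylk2 (2.96). The regulatory chains Mylpf and Myl2 held 40.3% of the summed light chain level per kilobase, and the essential chains the rest. Myl3 was at 0.04 CPM in wildtype at day 2.

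Group values were compared within a table as the log2 of (second value + 1)/(first value + 1), and a gene was counted as at least 2-fold apart where the higher value was 10 or more. From day 0 to day 1 in wildtype, 6 of the 7 members at that minimum were at least 2-fold higher and none lower, against 22.8% of all genes at least 2-fold apart in either direction. The folds were 5.69 for Myl1, 6.17 for Myl4, 5.79 for Mylpf, 6.75 for Myl6b, 4.09 for Mylk4 and 8.74 for Myl2. From day 1 to day 2, 6 of 7 were again at least 2-fold higher and none lower (19.9% of all genes apart). Mylpf was then 4.05-fold, Myl4 4.08-fold and Myl1 3.93-fold higher, and Myl2 8.57-fold higher. Mylk4 was 2.05-fold higher, or 0.85 on the log2 scale with each value scaled to the sum of its own column, which is under 2-fold. Mylk2 was within 2-fold in both steps, at group values of 114 and 112 and then 105 and 171.

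**Figure D1:**
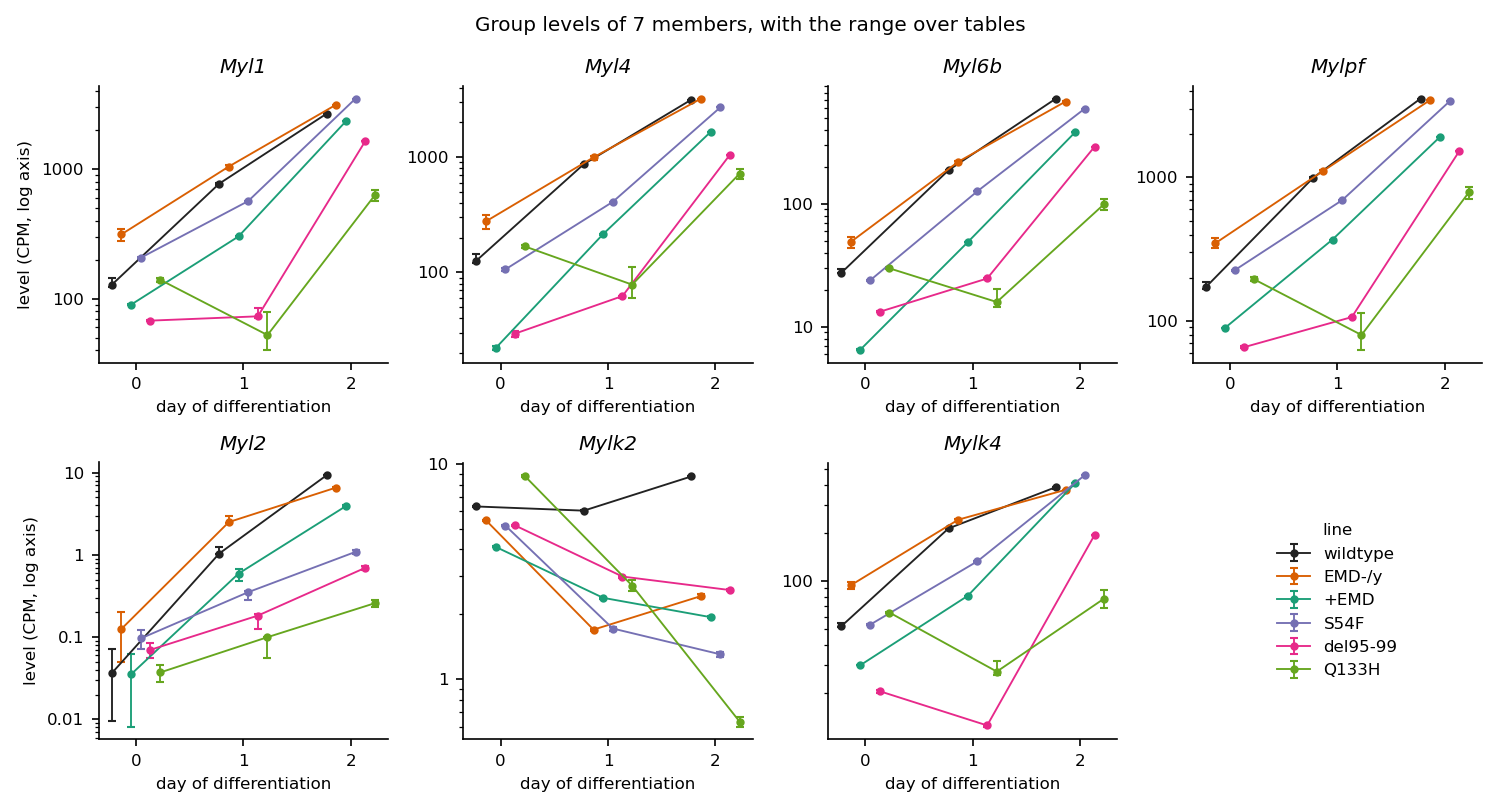
Level of 7 members by day of differentiation (x axis) in CPM (y axis, log scale), one line of points per cell line. Points are medians over tables and bars run from the lowest to the highest table, not over replicates; Myl1, Myl4, Myl6b, Mylpf and Mylk4 climb on both days in wildtype and EMD-/y, dip at day 1 in Q133H, and Mylk2 is highest in wildtype at days 1 and 2.

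EMD-/y cells had more light chain RNA than wildtype at day 0 and levels near wildtype later, while Mylk2 was lower at days 1 and 2. At day 0 no member of 6 was at least 2-fold apart from wildtype (8.77% of all genes apart), but the light chains were between 1.51-fold higher, for Myl6b, and 1.95-fold higher, for Myl1. Mylpf was at 348 CPM (320 to 377) and Myl1 at 314 (281 to 347), in ranges that lie wholly above those of wildtype. The call at day 0 turns on the table used: by the median levels over tables, Myl1 was 2.45-fold, Myl4 2.19-fold and Mylpf 2.03-fold above wildtype. At day 1 none of 7 was at least 2-fold higher and 1, Mylk2, was lower (7.42% of all genes apart). The light chain folds over wildtype were 1.36 for Myl1, 1.15 for Myl4, 1.12 for Mylpf and 1.17 for Myl6b, with Myl2 at 1.92 from values of 22.8 and 44.8, or 2.42 by the median levels. At day 2 Mylk2 was again the 1 member apart, lower, of 7 (7.63% of all genes apart), and Mylpf was within 1.02-fold of wildtype. The EMD-/y and wildtype ranges of Mylpf at day 2 overlap.

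Between days 0 and 1 the EMD-/y cells showed smaller steps than wildtype for Myl1, Myl4, Mylpf, Myl6b and Mylk4, from a higher start. The step of Myl2 was larger, at 3.34 against 3.13 in wildtype on the log2 scale. From day 0 to day 1, 6 members of 7 were at least 2-fold higher and Mylk2 was lower (21.4% of all genes apart), with folds of 2.94 for Myl1, 3.01 for Myl4 and 2.89 for Mylpf. From day 1 to day 2, 5 of 7 were at least 2-fold higher and none lower (18.6% of all genes apart). Mylpf was 3.63-fold and Myl4 3.70-fold higher. Mylk4 was 1.80-fold and Mylk2 1.66-fold higher.

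The +EMD line, which carries wildtype emerin again, had lower levels than wildtype at days 0 and 1 and approached them unevenly at day 2. At day 0, 2 of 6 members were at least 2-fold lower and none higher (17% of all genes apart). These were Myl4, 5.23-fold lower at group values of 425 against 2229, and Myl6b, 4.05-fold lower at 122 against 497. Myl1 was only 1.37-fold and Mylpf 1.85-fold lower. At day 1, 6 of 7 were at least 2-fold lower and none higher (19.6% of all genes apart). Myl4 was 4.26-fold, Myl6b 4.05-fold, Mylpf 2.85-fold, Mylk4 2.78-fold and Myl1 2.70-fold lower. At day 2, 2 of 7, Myl2 and Mylk2, were at least 2-fold lower and none higher (18.4% of all genes apart). Myl4, Mylpf and Myl6b stood just inside the limit, at 1.96-fold, 1.91-fold and 1.93-fold lower, Myl1 was 1.18-fold lower, and Mylk4 was within 1.03-fold.

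In +EMD 5 of 6 members were at least 2-fold higher at day 1 than at day 0 and none lower (17.3% of all genes apart), and 6 of 7 were higher at day 2 than at day 1 and none lower (20.5% of all genes apart). The first step was 9.48-fold for Myl4, from a group value of 405 to 3846, against 3.19-fold for Myl1. The second step was 9.13-fold for Myl1, 9.07-fold for Myl4, 9.23-fold for Myl6b and 6.14-fold for Mylpf.

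S54F cells were near wildtype at day 0 and lower at day 1 for all 7 members at the minimum. At day 2 they were near wildtype again for the abundant light chains. None of 6 members was at least 2-fold apart at day 0 (11.9% of all genes apart). Myl1 was 1.55-fold higher and Myl4 1.22-fold lower. At day 1, 3 of 7 were at least 2-fold lower and none higher (12% of all genes apart). They were Myl4, 2.16-fold lower at 7617 against 16484, Myl2, 2.62-fold lower at 6.80 against 19.4, and Mylk2. At day 2 Myl2 and Mylk2, 2 of 7, were at least 2-fold lower and none higher (10.6% of all genes apart). Mylpf was within 1.02-fold of wildtype, Myl1 was 1.34-fold and Mylk4 1.22-fold higher, and Myl2 was 7.59-fold lower, at 21.7 against 172. Within the line, 5 of 6 members were at least 2-fold higher from day 0 to day 1 and 1, Mylk2, was lower (16.6% of all genes apart). From day 1 to day 2, 6 of 7 were higher and none lower (20.5% of all genes apart), by 7.44-fold for Myl1 and 7.92-fold for Myl4.

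In del95-99 cells the light chains were low at day 0, unevenly higher at day 1, and many times higher at day 2. At day 0, 4 of 6 members were at least 2-fold lower than wildtype and none higher (12.4% of all genes apart). Myl4 was 3.91-fold, Mylpf 2.61-fold, Mylk4 2.53-fold and Myl6b 2.09-fold lower, and Myl1 1.85-fold lower. At day 1 all 7 members at the minimum were at least 2-fold lower (20.9% of all genes apart). Mylpf had a group value of 1889 against 19416 in wildtype, 10.3-fold lower. Myl1 was 11.5-fold, Myl4 15.2-fold and Mylk4 18.6-fold lower. At day 2, 6 of 7 were at least 2-fold lower and none higher (22% of all genes apart). Myl4 was 3.41-fold, Myl6b 2.79-fold and Mylpf 2.65-fold lower. Mylk4 was 2.26-fold lower, or -0.99 on the log2 scale with each value scaled to the sum of its own column, just under 2-fold.

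Within del95-99, 1 of 6 members, Myl4, was at least 2-fold higher at day 1 than at day 0 and none was lower (14% of all genes apart). Myl1 was within 1.04-fold, at 67.7 CPM (66.7 to 68.7) at day 0 and 73.1 (70.8 to 85.0) at day 1. Mylk4 was 1.66-fold lower at day 1. Mylpf went from 65.6 to 106 CPM, Myl6b from 13.3 to 24.7 and Myl4 from 29.5 to 62.3, in ranges that do not overlap. From day 1 to day 2, 6 of 7 members were at least 2-fold higher and none lower (14.2% of all genes apart). Myl1 was 21.2-fold higher, Myl4 18.5-fold, Mylk4 17.0-fold, Mylpf 15.7-fold and Myl6b 12.7-fold. Myl1 reached 1638 CPM at day 2, still below the 2671 of wildtype.

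Q133H cells were close to wildtype at day 0, and at day 1 the members were lower than they had been at day 0. None of 6 members was at least 2-fold apart from wildtype at day 0 (14.8% of all genes apart), and all 6 were between 1.08-fold and 1.35-fold higher. At day 1 all 7 at the minimum were at least 2-fold lower (24.1% of all genes apart). Myl1 had a group value of 726 against 15051, 20.7-fold lower. Mylpf was 17.2-fold, Myl4 15.6-fold, Myl6b 13.9-fold and Mylk4 8.90-fold lower. At day 2 all 7 were again at least 2-fold lower (33.5% of all genes apart). Mylpf was 4.80-fold, Myl1 4.50-fold and Myl4 4.61-fold lower, and Myl6b 7.61-fold lower.

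From day 0 to day 1 in Q133H, 5 of 6 members were at least 2-fold lower and none was higher (12.1% of all genes apart), where wildtype had 6 higher. Myl1 was 2.57-fold lower, Mylpf 2.36-fold, Mylk4 2.31-fold and Myl4 2.07-fold, and Myl6b 1.83-fold. From day 1 to day 2, 5 of 6 were at least 2-fold higher and 1, Mylk2, was lower (10.8% of all genes apart). The size of these steps depends on the table, because Myl1 in Q133H at day 1 was given as 726, 995 and 1521 in its 3 tables, or 40.2 to 79.5 CPM. The highest of the 3 was still below the lowest day 0 value, 135 CPM. Mylpf at day 1 was between 62.6 and 113 CPM, below the 188 to 201 of day 0, and Myl4 between 59.8 and 112, below the 162 to 174 of day 0.

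**Figure D2:**
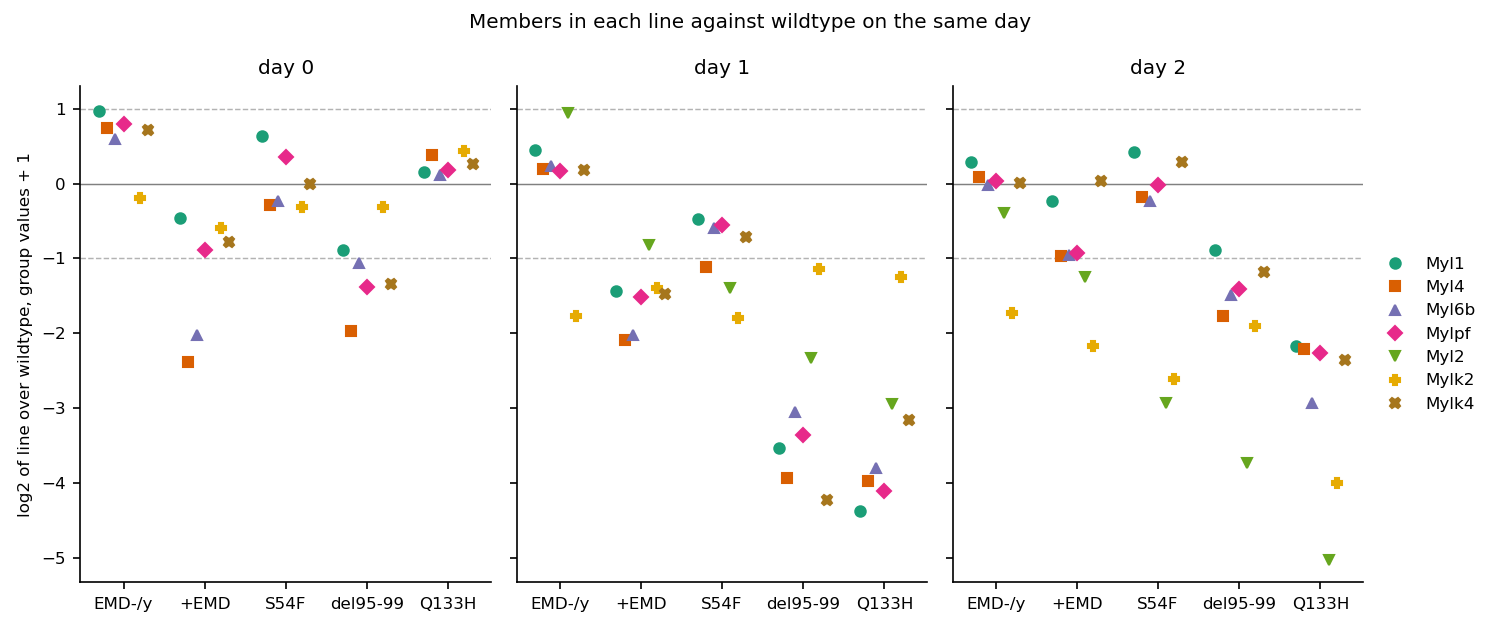
Members (symbols) in each of the 5 other lines (x axis) against wildtype on the same day, as the log2 of the ratio of group values + 1 (y axis); dashed lines mark 2-fold. No point reaches 2-fold higher, all 7 members are at least 2-fold lower at day 1 in del95-99 and Q133H, and Mylk2 is below the lower dashed line in all 5 lines at days 1 and 2.

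The 15 comparisons with wildtype held 100 member values at the minimum, and between 7.42% and 33.5% of all genes were apart in each. Within a table, 48 of the 100 were at least 2-fold lower and 0 at least 2-fold higher. By the median levels over tables, 47 were lower and 4 higher, the latter being Myl1, Myl4 and Mylpf at day 0 and Myl2 at day 1, all in EMD-/y. These comparisons share the wildtype samples of each day. The order of the lines was alike for the abundant light chains. At day 1 Mylpf ran from EMD-/y (1107 CPM) and wildtype (995) through S54F (695) and +EMD (369) to del95-99 (106) and Q133H (79.7), and only the ranges of the last 2 overlap. Myl1 and Myl4 had EMD-/y, wildtype, S54F and +EMD in the same places at day 1, and del95-99 and Q133H again overlapped. At day 2 Mylpf ran from wildtype (3551) and EMD-/y (3472), whose ranges overlap, through S54F (3395), +EMD (1916) and del95-99 (1523) to Q133H (787). Myl1 at day 2 was highest in S54F, at 3497 CPM, above EMD-/y (3141) and wildtype (2671). In bulk RNA fewer differentiating cells and less RNA per cell cannot be told apart.

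A line's step between days was set against that of wildtype as the difference of the 2 log2 ratios, for 65 values at the minimum. Of these, 20 were at least 1 log2 unit below wildtype and 10 at least 1 above. No share over all genes is given beside these counts or those by line below, so they do not show whether such steps were unusual. All 5 lines are set against the same wildtype steps. From day 0 to day 1 the differences ranged from -0.84 to 0.62 in +EMD, with 0 of 6 members past 1 log2 unit. All 6 were past it in Q133H, from -3.87 for Myl1 to -1.55 for Mylk2, and 5 of 6 in del95-99, from -2.76 for Mylk4. In S54F 2 of 6 were past it, Myl1 at -1.06 and Mylk2 at -1.50, and the highest difference was -0.34. In EMD-/y 3 of 7 were past it, Myl4 at -1.04, Mylpf at -1.0 and Mylk2 at -1.59. Taken instead from the comparisons with wildtype on both days, Myl4 was at -0.53 and Mylpf at -0.64, so of the 3 calls Mylk2 alone remained, at -1.57.

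The steps of Myl1, Myl4, Mylpf and Myl6b from day 1 to day 2 were larger than in wildtype in the 4 transduced lines. The smallest excess, 0.04 for Myl6b in Q133H, depends on the table used and was 0.87 from the comparisons with wildtype. Its day 1 level there ranged from 14.5 to 20.2 CPM over tables, so 0.04 is no clear difference. Steps of Myl2 and Mylk2 were smaller in these lines, with Myl2 in Q133H below the minimum. In del95-99, 5 of 7 members were at least 1 log2 unit above wildtype, from 1.56 for Myl6b to 3.05 for Mylk4, with Myl1 at 2.43 and Mylpf at 1.96, and Myl2 was below, at -1.45. In +EMD 4 of 7 were above, Myl1 at 1.22, Myl4 at 1.15, Myl6b at 1.09 and Mylk4 at 1.54. In S54F Mylk4 was above, at 1.02 (0.997 from the comparisons with wildtype), and Myl2 was below, at -1.43. In EMD-/y none was above and Myl2 was below, at -1.75. In Q133H none was above and Mylk2 was below, at -2.55, with Myl1 at 0.88 and Mylpf at 0.66 from the tables between days. The same differences taken from the 2 comparisons with wildtype were 2.20 and 1.84, so whether the Q133H step exceeded that of wildtype by 1 log2 unit depends on the table used for day 1.

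**Figure D3:**
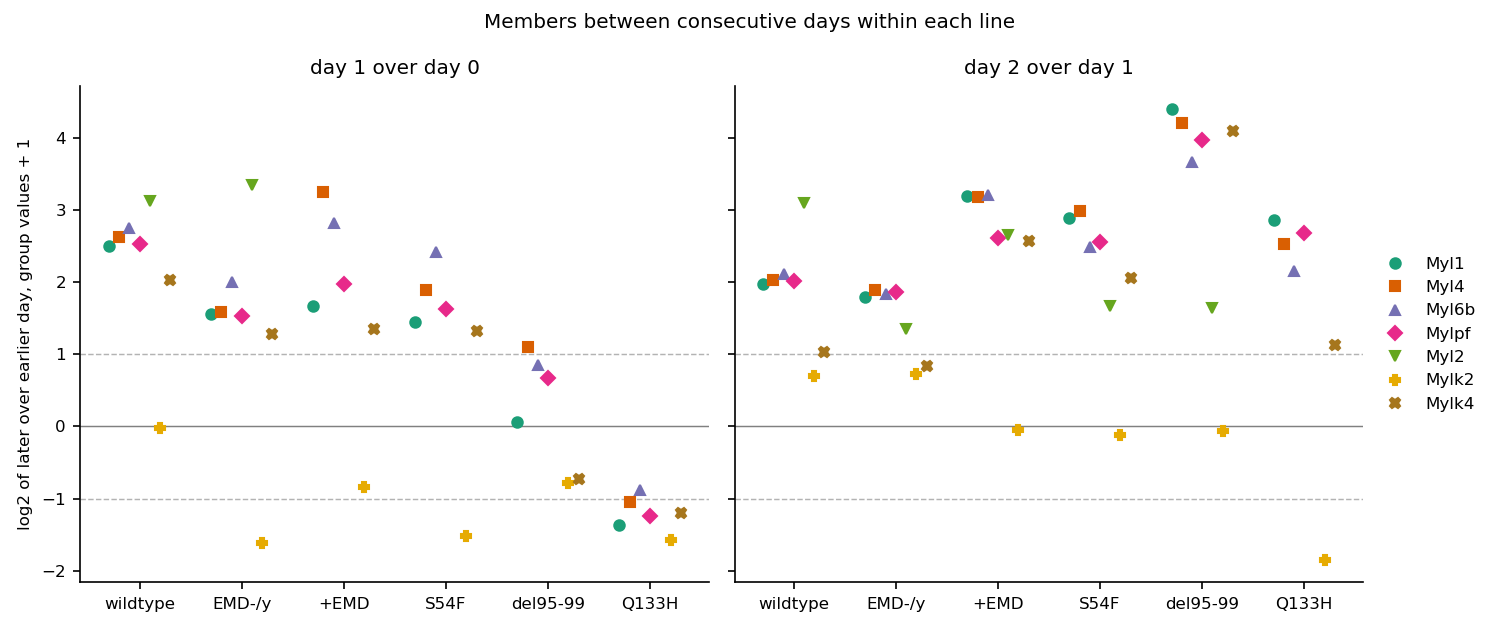
Members (symbols) between consecutive days in each of the 6 lines (x axis), as the log2 of the ratio of the later to the earlier group value + 1 (y axis); dashed lines mark 2-fold. From day 0 to day 1 the light chains and Mylk4 lie above 0 in wildtype, EMD-/y, +EMD and S54F and below it in Q133H, and from day 1 to day 2 del95-99 holds the highest points, up to 4.41 for Myl1.

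The 2 kinase genes differed in course. Mylk4 rose with the light chains in wildtype, from 52.1 to 213 to 386 CPM, but by less than Myl1. Its ratio to Myl1 per kilobase went from 0.058 to 0.040 to 0.021. In del95-99 Mylk4 went from 20.5 CPM at day 0 to 12.5 at day 1, while Myl4, Mylpf and Myl6b rose. At day 1 it was at 242 in EMD-/y, 1.63-fold below wildtype in S54F, and at 80.9 in +EMD, 27.2 in Q133H and 12.5 in del95-99. At day 2 it was at 460 in S54F and 409 in +EMD, both above wildtype, and at 194 in del95-99 and 77.8 in Q133H. Mylk4 thus stood at or above its wildtype level at day 2 in +EMD, where Mylpf was 1.91-fold and Myl4 1.96-fold lower.

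Mylk2 was low everywhere, at most 8.77 CPM, and did not follow the light chains. In wildtype it was at 6.33, 6.05 and 8.72 CPM at days 0, 1 and 2. At day 0 the other lines were between 4.11, in +EMD, and 8.77, in Q133H, all within 2-fold of wildtype. At day 1 they were between 1.70 in EMD-/y and 2.99 in del95-99, and at day 2 between 0.63 in Q133H and 2.59 in del95-99. No range of any other line overlapped that of wildtype on these days. Against wildtype, Mylk2 was lower in all 5 lines at day 1, by 2.20-fold in del95-99 to 3.46-fold in S54F, and at day 2 by 3.33-fold in EMD-/y to 15.9-fold in Q133H. Over the 15 comparisons it was at least 2-fold lower in 10, the highest count of any member, where 7.42% to 33.5% of all genes were apart. Mylk2 reached the minimum in all 15, while Myl2 reached it in 10 and was lower in 7 of them. Mylk2 was also the member at least 2-fold lower in EMD-/y, where the light chains were not. Between days it was at least 2-fold lower at day 1 than at day 0 in EMD-/y (3.07-fold), S54F (2.87-fold) and Q133H (2.97-fold), and 1.78-fold and 1.72-fold lower in +EMD and del95-99. In Q133H it was a further 3.60-fold lower at day 2, at group values of 13.0 against 49.3.

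The chains of slow and cardiac muscle were rare. Myl2 was at most 0.20 CPM in any table at day 0 and highest at day 2, at 9.30 CPM in wildtype (9.26 to 9.36), 6.60 in EMD-/y (6.44 to 6.77), 3.92 in +EMD (3.84 to 4.0), 1.09 in S54F (1.04 to 1.14), 0.70 in del95-99 (0.65 to 0.74) and 0.26 in Q133H (0.23 to 0.29). None of these ranges overlap. Against wildtype at day 2 Myl2 was 1.32-fold lower in EMD-/y, 2.38-fold in +EMD, 7.59-fold in S54F, 13.3-fold in del95-99 and 32.5-fold in Q133H, the last at group values of 4.92 against 191. In S54F at day 2 Mylpf was much nearer to wildtype than Myl2 was, at 3395 against 3551 CPM, though these ranges do not overlap either. Myl3 reached the minimum of 10 in none of the 23 tables that list it. Its highest level was 0.42 CPM, in EMD-/y at day 2 (0.40 to 0.43), where the group values were 7.58 and 8.48, and it was at 0.14 CPM or less in the other groups.

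The balance among the essential chains differed between lines more than the share of the regulatory chain. The ratio of Myl4 to Myl1 per kilobase in wildtype was 0.99, 1.13 and 1.18 at days 0, 1 and 2, so the embryonic and the fast chain were about equal. In EMD-/y it was 0.88, 0.95 and 1.02. In +EMD it was 0.25 at day 0 (0.24 to 0.26), 0.71 at day 1 and 0.71 at day 2. In S54F it was 0.51, 0.72 and 0.77, and in del95-99 0.44, 0.86 (0.74 to 0.86) and 0.64. In Q133H it was 1.20, 1.49 (1.42 to 1.5) and 1.14. At day 2 the ranges of +EMD, S54F and del95-99 lay below those of EMD-/y, Q133H and wildtype. Myl6b per kilobase was 0.19 of Myl1 in wildtype at day 0 and 0.23 at day 2, against 0.06 in +EMD at day 0 and between 0.14 and 0.19 in the other lines at day 2. Mylpf per kilobase was 1.63, 1.58 and 1.63 times Myl1 in wildtype. At day 2 it was 1.00 in +EMD, 1.14 in del95-99, 1.19 in S54F, 1.35 in EMD-/y and 1.53 in Q133H. The regulatory chains held between 35.2%, in +EMD at day 2, and 48.2%, in +EMD at day 0, of the light chain level per kilobase over the 18 groups.

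**Figure D4:**
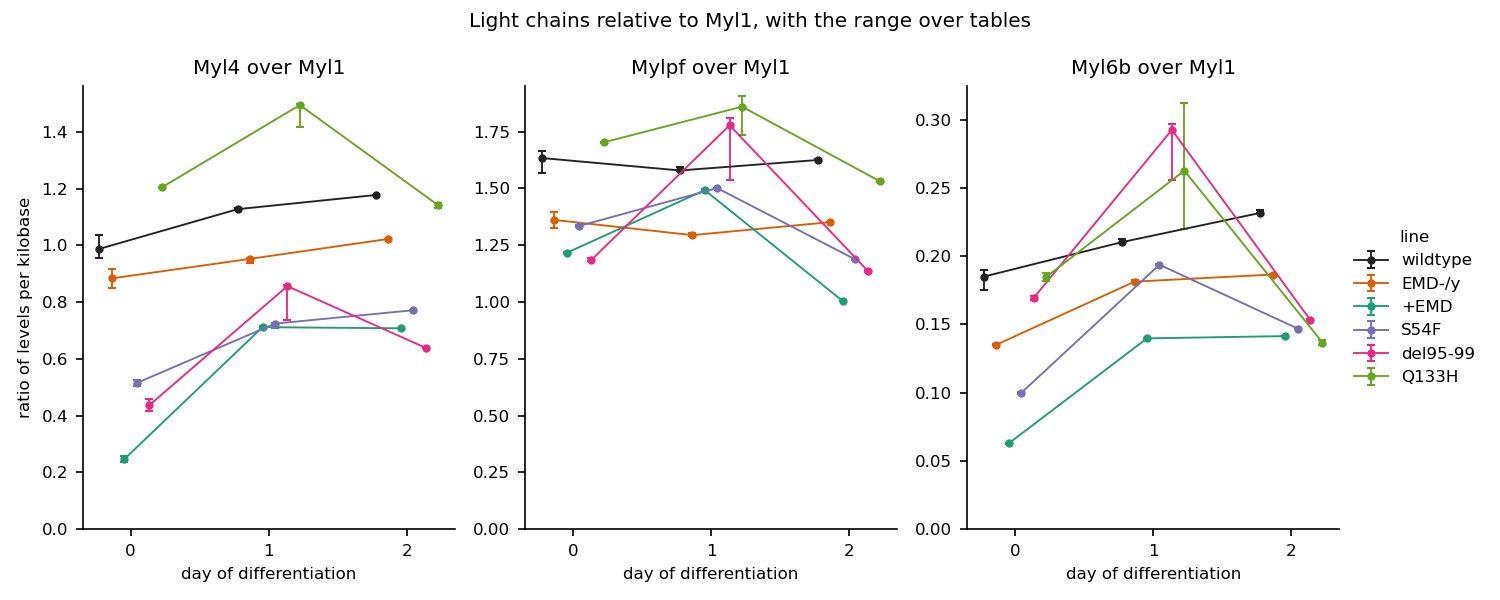
Ratio of Myl4, Mylpf and Myl6b to Myl1, each per kilobase (y axis, from 0), by day (x axis) in the 6 lines. Points are medians over tables and bars the lowest and highest table; Myl4 is between 0.88 and 1.49 in wildtype, EMD-/y and Q133H and at 0.86 or less in +EMD, S54F and del95-99, with the lowest value, 0.25, in +EMD at day 0.

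Over the 18 groups the log2 levels of Myl1, Myl4, Mylpf, Myl6b and Mylk4 had Pearson correlations between 0.94 (Myl6b with Mylk4) and 0.99 (Myl1 with Mylpf). The groups share lines, days and the scaling to the column sum, so these values describe likeness only. Among 10559 genes at 10 CPM or more in some group, those most like Myl1 were Cacng6 (r = 0.996), which encodes a calcium channel subunit, Hspb3 (0.994), a small heat shock protein, and Acta1 (0.994), skeletal actin. Those most like Mylpf were Hjv (0.994), Tnnc1 (0.993), slow troponin C, and Cacng6 (0.993). Those most like Myl4 were Tnnc1 (0.985), Klhl40 (0.984), a sarcomere-associated protein, and Casq2 (0.984), a calsequestrin. Those most like Myl6b were Rab40b (0.991), Casq2 (0.990) and Ablim3 (0.989). Those most like Mylk4 were Trim72 (0.977), a membrane repair protein, Tnni1 (0.975), slow troponin I, and Cacna1s (0.974), the skeletal muscle calcium channel.

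Among the light chains and kinases of other cells, Myl6 and Myl12a stayed in a narrow range, Myl9 was lower on later days in wildtype, and Mylk was higher. Of 8 such genes, 7 were listed, 5 reached the minimum, and Myl7, the atrial regulatory chain, was listed in 0 tables. Myl6, the essential chain of smooth muscle and non-muscle myosin, was between 284 and 511 CPM over the 18 groups, and Myl12a, a non-muscle regulatory chain, between 719 and 1207. In del95-99 at day 1, where all 7 members were lower, 1 of the 5 was at least 2-fold lower (20.9% of all genes apart), and their median log2 ratio was -0.49 against -3.36 for the members and -0.01 for all genes. In Q133H at day 1, 2 of the 5 were lower (24.1% of all genes apart) and the median was -0.73 against -3.80 for the members. Myl9, the smooth muscle regulatory chain, was at 356 CPM in wildtype at day 0 and 87.7 at day 2, a course opposite to that of Mylpf. Mylk, the smooth muscle kinase gene, was at 1.76, 4.27 and 15.5 CPM in wildtype at days 0, 1 and 2. It was at 22 in EMD-/y and 24.6 in +EMD at day 2, where Mylk2 was at 2.43 and 1.94. Of the 7 genes of calmodulin and the light chain phosphatase, 0 were at least 2-fold apart from wildtype in any of the 15 comparisons, in which between 7.42% and 33.5% of all genes were.

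The heavy chains to which the light chains bind, and other muscle genes, had low values in the same groups. Of the 8 sarcomeric heavy chains, all 8 were at least 2-fold lower than wildtype at day 1 in del95-99 and in Q133H, with medians of -4.43 and -4.87 on the log2 scale, and 7 of 8 in +EMD, where 20.9%, 24.1% and 19.6% of all genes were apart. Myh3, the embryonic heavy chain, was at 3691 CPM in wildtype at day 1, 228 in del95-99 and 148 in Q133H. Of 6 skeletal muscle markers, all 6 were at least 2-fold lower at day 1 in del95-99 and in Q133H (20.9% and 24.1% of all genes apart). Myog, the differentiation factor myogenin, was at 1990 CPM in wildtype at day 1, 588 in del95-99 and 175 in Q133H. At day 2 Myog was at 2317 in del95-99, near the 2562 of wildtype, and at 1191 in Q133H. Mef2c, a partner of the myogenic factors, was at 217 CPM in wildtype at day 1 and at 9.98 in +EMD, 5.36 in del95-99 and 25.2 in Q133H. Of 9 myosin binding and assembly genes, all 7 that reached the minimum at day 1 were lower in both del95-99 and Q133H, against the same shares of all genes. Of 5 smooth muscle markers, 3 reached 10 CPM in some group. Acta2 was between 830 and 4825 CPM over the groups. Tagln and Smtn were the others, with group values of 6424 and 1170 in wildtype at day 0, beside day 1. Cnn1 and Myh11 did not reach 10 CPM, and Myh11 was at 1.27 CPM or less. What part these genes have in the values of the light chains was not tested.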

How the data were processed

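Poly-A RNA of 54 samples (18 groups of a line and a day, grouped by the GEO labels) was sequenced as paired reads of 100 bases. The authors' provider filtered reads with SOAPnuke, mapped them to mm10 with HISAT2 and compared pairs of groups with DESeq2. The counting tool, strand setting and versions are not given in the sources used here. The signal values as deposited by the authors are 1 normalized count per gene and group in each of 27 tables (17215 to 17876 genes). With 0 columns for single samples, the depth of each library is unknown. The authors' fold change, p-value and direction columns were not used. Gene numbers were matched to RefSeq symbols on GRCm38.p6, the assembly of mm10.

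Levels are CPM, scaled to the column sum, and, between genes, per kilobase of the median listed length. Ratios used a pseudocount of 1, a minimum value of 10 and a limit of 2-fold, without tests. Scripts (Python 3.11.15, numpy 2.4.6, pandas 2.3.3) were tested on simulated data. Alternatives were pseudocounts of 0.5 and 5, no minimum or 50, limits of 1.5-fold and 4-fold, scaling to the column's sum, median centring, the lowest and highest table, and, chosen after seeing the data, median levels over tables and steps from the comparisons with wildtype. Named genes are the members, the genes of fixed lists and the 3 most correlated with each member reaching 10 CPM. Members and lists were chosen with earlier results of these data known.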

Additional observations from a re-analysis of the deposited data

How the results depend on the processing

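Over the comparisons with wildtype, 48 member values at least 2-fold lower became 27 at a limit of 4-fold, and 0 higher became 7 at a limit of 1.5-fold and 1 with no minimum, for Myl3. Between days, 57 higher and 8 lower became 34 and 0 at a limit of 4-fold. No share of all genes at these other settings is given, so the counts do not show whether such values were unusual. But for the ratio of median levels, the other settings moved these counts by at most 1.5 times. Of 179 single ratios, none past 2-fold changed direction and 2 dropped under 2-fold, both of Mylk4, with each value scaled to the sum of its own column. With the ratio of median levels over tables, chosen after seeing the data, 4 of the ratios against wildtype were at least 2-fold higher, all in EMD-/y, and 6 of 179 calls differed. Of 144 levels, 7 at the highest and 6 at the lowest table lay over 1.5-fold from the median, by up to 2.11 on the log2 scale. These were levels of Myl2 and Myl3, and that of Myl1 in Q133H at day 1. Of the steps between days against wildtype, 20 were below and 10 above by 1 log2 unit, and the other settings gave 18 to 20 and 10 to 12, the ends of these ranges from the comparisons with wildtype, also chosen after seeing the data. No paired analysis was possible because the tables hold no values per sample, and for the same reason no replicate could be left out.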

Other observations

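The transcript length listed beside each gene was not constant, and it followed the group that a table names second. In each of the 10 groups that stand second in 2 tables, both tables gave the same length for every member listed in both. For Myl1 the length was 858 bases where Q133H day 1 stood second, 879 for Q133H day 2, 886 for del95-99 day 1, 922 for wildtype day 1 and 948 for EMD-/y day 2. For Mylpf it stayed between 751 and 757 bases. How these lengths were made is not given in the sources used here.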
